A study of Mus musculus with 24 samples.

Results

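The data described here are the CDDO-Me by medium interaction between 2 conditioned media (CM), those of wild-type (WT) and of NRF2 KO cancer cells. For each gene, the change from vehicle to CDDO-Me in macrophages held in WT CM was taken, and the same change in NRF2 KO CM was subtracted from it. The interaction used 12 libraries of the 24 in the series, 3 in each of 4 groups, and 13661 of the 35770 genes listed were tested. The cells were bone marrow-derived macrophages (BMDMs), grown from C57BL/6 mice with the growth factor M-CSF and not themselves edited. They were kept for 24 h in medium of which 75% had been conditioned for 48 h by LL2 cells, the Lewis lung carcinoma line of mice. The LL2 cells were either WT or carried an NRF2 knockout made with CRISPR, and the library names give a single line for the knockout, so that the genotype and that line cannot be told apart. To each medium either vehicle (WT/vehicle and NRF2 KO/vehicle BMDMs) or 100 nM CDDO-Me (WT/CDDO-Me and NRF2 KO/CDDO-Me BMDMs) was added. The other 12 libraries, used further below as separate samples, were BMDMs in KEAP1 KO CM or in control media without cancer cells, with the same treatments. The 3 samples of a group were independent by the study's account, and whether they came from separate mice was not stated in the sources used here.

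CDDO-Me, or bardoxolone methyl, is a synthetic oleanane triterpenoid that binds KEAP1 and so releases NRF2, a transcription factor that switches on antioxidant and detoxifying genes through antioxidant response elements. Interferons act on macrophages through transcription factors, the interferon regulatory factors among them, which bind interferon-stimulated response elements (ISREs) and gamma-activated sites (GAS), and induce guanylate-binding proteins, immunity-related GTPases, the chemokines Cxcl9 and Cxcl10, and antigen presentation. The cytokines IL-4 and IL-13 act through STAT6 and induce the alternative activation program, whose classical mouse markers include Retnla, Chil3 and Mrc1 and which is common among tumor-associated macrophages.

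Promoter sequence is shown first for the genes at the extremes of the interaction. Of the 13661 genes tested, 9987 matched by symbol at least 1 window in a RefSeq promoter table (GRCm38.p6), with 12794 windows in all, each running from 250 bases before the annotated start to 50 bases after it. The ISRE core was searched on both strands as GAAANNGAA, the GAS as TTCNNNGAA, the STAT6 form as TTC and GAA 4 bases apart, and the core of the antioxidant response element as TGACNNNGC. The ISRE and GAS patterns share the GAA ending and may overlap. Below are the windows of 4 of the 12 genes with the largest positive interactions (Tgtp1, near-identical to Tgtp2, left out), and that of Retnla, the gene with the largest negative interaction. Each matched GRCm39 exactly at 1 place on its chromosome, and is written 5′ to 3′ on the gene's strand. Coordinates are those of GRCm39. Capitals mark the ISRE core in the first 4, which in Gbp2 lies on the opposite strand, and the STAT6 form in Retnla.
Cxcl9, chr5:92475889-92476188, minus strand: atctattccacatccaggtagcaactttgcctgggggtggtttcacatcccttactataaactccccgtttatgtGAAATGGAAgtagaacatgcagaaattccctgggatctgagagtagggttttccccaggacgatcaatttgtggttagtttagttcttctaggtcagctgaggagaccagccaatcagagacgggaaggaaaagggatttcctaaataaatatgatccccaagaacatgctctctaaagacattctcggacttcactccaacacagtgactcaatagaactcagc
Cxcl10, chr5:92496699-92496998, minus strand: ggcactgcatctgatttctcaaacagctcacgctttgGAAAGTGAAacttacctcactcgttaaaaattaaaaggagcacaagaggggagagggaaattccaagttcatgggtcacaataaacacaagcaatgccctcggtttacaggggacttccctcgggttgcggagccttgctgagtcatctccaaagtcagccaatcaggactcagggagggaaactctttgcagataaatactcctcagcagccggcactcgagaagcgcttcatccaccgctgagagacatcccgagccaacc
Tgtp2, chr11:48954990-48955289, minus strand: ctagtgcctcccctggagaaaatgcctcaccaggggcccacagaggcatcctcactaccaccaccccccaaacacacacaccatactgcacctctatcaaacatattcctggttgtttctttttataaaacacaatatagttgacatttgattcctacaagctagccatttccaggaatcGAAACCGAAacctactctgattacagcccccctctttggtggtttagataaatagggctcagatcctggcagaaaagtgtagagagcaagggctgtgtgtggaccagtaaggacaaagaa
Gbp2, chr3:142326174-142326473, plus strand: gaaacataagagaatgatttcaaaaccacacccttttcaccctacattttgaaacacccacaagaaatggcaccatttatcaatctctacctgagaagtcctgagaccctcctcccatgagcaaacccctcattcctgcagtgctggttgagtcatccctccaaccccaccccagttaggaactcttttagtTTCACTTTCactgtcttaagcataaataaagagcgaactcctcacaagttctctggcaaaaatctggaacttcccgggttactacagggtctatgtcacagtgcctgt
Retnla, chr16:48662722-48663021, plus strand: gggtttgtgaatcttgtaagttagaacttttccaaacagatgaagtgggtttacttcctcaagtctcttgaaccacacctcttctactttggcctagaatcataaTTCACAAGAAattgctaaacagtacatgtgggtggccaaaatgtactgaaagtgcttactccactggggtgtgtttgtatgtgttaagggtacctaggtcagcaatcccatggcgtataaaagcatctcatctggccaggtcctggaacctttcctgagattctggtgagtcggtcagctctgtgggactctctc

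The ISRE core began 175 bases before the RefSeq start in Cxcl9, 213 before it in Cxcl10, 70 before it in Tgtp2 and 58 before it in Gbp2. It was held by 7.28% of the 12794 windows of all tested genes. Among the 1009 windows of genes with a called positive interaction the share was 15.7%, and among the 223 windows of genes whose interaction was above 2 it was 32.3%. In the 778 windows of genes with a called negative interaction it was 7.46%, and in the 149 windows of those below -2 it was 10.1%, with Chil3, Rnase2a, Ear2 and Tarm1 among the holders. The GAS was held by 6.85% of all windows, by 8.72% of those of called higher genes and 5.01% of those of called lower genes, and beyond 2 and -2 by 14.3% and 6.04%. The STAT6 form stood at 5.61% of all windows, 5.85% of those of called higher genes and 6.94% of those of called lower genes, and beyond 2 and -2 at 7.17% and 6.71%. It was held by 7 of the 31 windows of the alternative activation list (22.6%) and by a like share, 9 of 40 (22.5%), of those of the type I interferon list. The antioxidant core stood at 14.3% of all windows, 13.4% of those of called higher genes and 15.6% of those of called lower genes, and beyond 2 and -2 at 13.5% and 12.8%. It was held by 11 of the 37 windows of the NRF2 target list (29.7%). A match is a description of these letters in these windows and not a site of binding.

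The libraries carried the genes that define macrophages, and a pair of them stood apart. Summed over 12 macrophage markers the level was 18147 to 40743 TPM (the deposited unit, a transcript share scaled to a column sum of 1000000) over the 12 libraries, with the lysozyme gene Lyz2 the most abundant. Adgre1, the F4/80 antigen, stood at 929, 865 and 757 TPM in WT/vehicle and 754, 671 and 350 TPM in NRF2 KO/vehicle BMDMs. In NRF2 KO/vehicle replicate 3 and NRF2 KO/CDDO-Me replicate 3, mitochondrially encoded genes took 9.87% and 4.74% of all TPM, against 1.54% to 3.32% in the other 10. In this pair 15702 and 16299 genes were above 0, against 17817 to 18993 in the other 10. Values without this pair are therefore given for lists whose counts moved by more than 1.5 times. Depth could not be read from TPM, since every column had the same sum.

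Since the knockout was made in the cancer cells alone, the macrophages' own level of the targeted gene does not check it. Nfe2l2, the gene of NRF2, was at 191, 182 and 173 TPM in WT/vehicle, 120, 111 and 90.6 in WT/CDDO-Me, 286, 242 and 459 in NRF2 KO/vehicle and 178, 181 and 255 in NRF2 KO/CDDO-Me BMDMs. Its interaction was -0.01 ± 0.37 on the log2(TPM + 1) scale used throughout, where ± gives the standard error (SE) of an interaction (adjusted p = 0.99). That of Keap1 was 0.29 ± 0.28 (adjusted p = 0.64), and neither was called.

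CDDO-Me changed more genes in WT CM than in NRF2 KO CM, and the genes of the interferon response and of alternative activation lay at opposite ends of the interaction. In WT CM 3798 genes (27.8% of those tested) were called, 1895 higher and 1903 lower with CDDO-Me (13.9% each). In NRF2 KO CM 1335 genes (9.77%) were called, 614 higher (4.49%) and 721 lower (5.28%). The interaction itself was called for 1822 genes (13.3%), of which 1040 (7.61%) were higher and 782 (5.72%) lower in WT CM, by limma with a Benjamini-Hochberg adjusted p below 0.05. Without scaling of the libraries the split was 920 higher and 997 lower, and the median over all tested genes lay at -0.13 in place of -0.04. Without the pair of NRF2 KO libraries numbered 3, it was 1754 higher and 1195 lower of 13562 tested, and 1727 of the 1822 genes were called again, while CDDO-Me in WT CM was called for 5926 genes. Fitted on its 12 libraries alone, the interaction was called for 1133 of 13151 genes (8.62%) and CDDO-Me in NRF2 KO CM for 699.

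**Figure D1:**
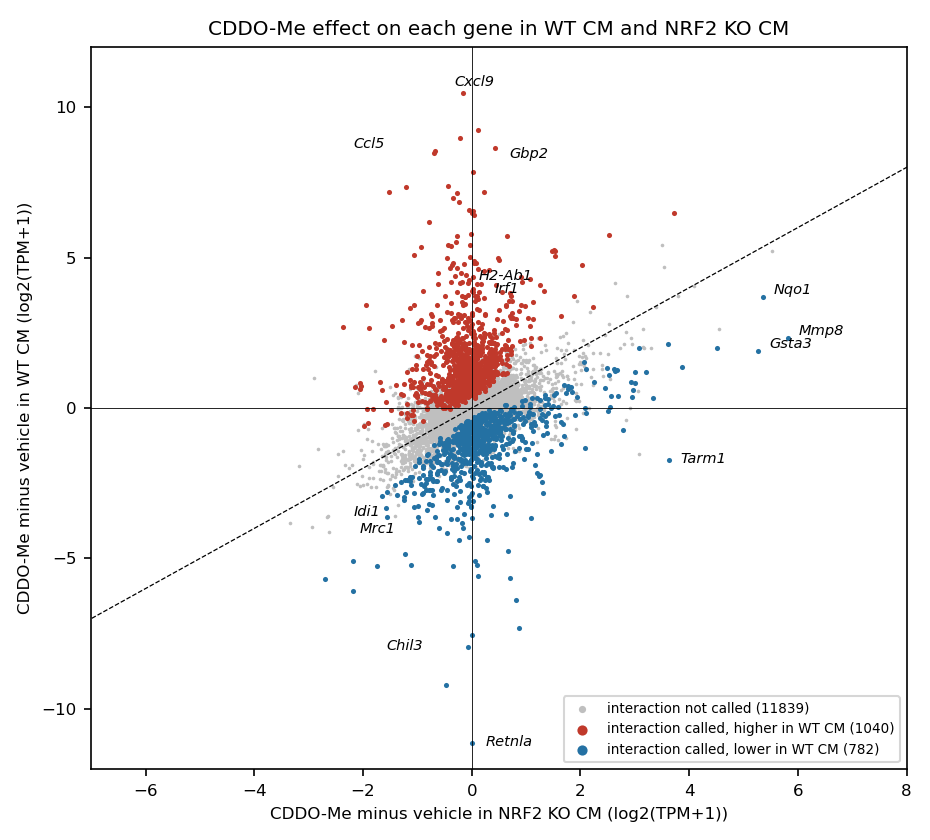
CDDO-Me minus vehicle on the log2(TPM + 1) scale for each of 13661 genes, in NRF2 KO CM (x axis) and WT CM (y axis); the dashed line marks equal change. Genes with a called interaction (1040 red, 782 blue) spread mainly along the vertical axis, from Cxcl9 at the top to Retnla at the bottom, and Nqo1 and Gsta3 lie to the right, where both changes are positive.

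Among called genes the interaction had a median size of 1.28 in the higher set, with 271 genes at 2 or more and 66 at 4 or more. The lower set had a median size of 1.19, with 152 genes at 2 or more and 20 at 4 or more. Of the 1040 higher genes, 942 (90.6%) rose with CDDO-Me in WT CM. In NRF2 KO CM 853 of them (82%) were not called, 131 fell and 56 rose. Of the 782 lower genes, 634 (81.1%) fell in WT CM, and in NRF2 KO CM 550 were not called, 157 rose and 75 fell. In all, 67 genes rose in WT CM and fell in NRF2 KO CM, and 50 did the reverse.

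The 2 media were also compared with each treatment held fixed. With vehicle, 1457 genes (10.7%) were called between WT CM and NRF2 KO CM, 896 (6.56%) higher and 561 (4.11%) lower in WT CM, and with CDDO-Me 3542 genes (25.9%) were called. The count with vehicle ran from 805 (without WT/vehicle replicate 3) to 2431 (without NRF2 KO/vehicle replicate 1) when 1 library was left out, was 870 without WT/vehicle replicate 1, and was 562 on the 12 libraries alone. With the replicate number as a block it was 2568. The count with CDDO-Me was 2343 on the 12 libraries alone, 5492 without the NRF2 KO pair numbered 3 and 7197 with array weights. Without scaling the split with vehicle was 610 higher and 769 lower, and with CDDO-Me 1372 higher and 2669 lower, where the scaled fit gave 1892 higher (13.8%) and 1650 lower (12.1%). Both sets of interaction genes were called between the media mostly with CDDO-Me. Of the 1040 higher genes, 830 were not called between the media with vehicle, and 917 were higher in WT CM with CDDO-Me. Of the 782 lower genes, 321 (41%) were already higher in WT CM with vehicle, and 518 (66.2%) were lower in WT CM with CDDO-Me. These 4 groups are the ones that make up the interaction, so the counts describe its parts and add no separate evidence.

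Genes of the interferon-gamma response showed the largest positive interactions. The chemokine gene Cxcl9 (chr5:92469206-92475945 on GRCm39), whose product draws T cells through CXCR3, was at 0.0352, 0.0471 and 0.0926 TPM in WT/vehicle BMDMs. In WT/CDDO-Me BMDMs it was at 1792, 1458 and 981 TPM, in NRF2 KO/vehicle at 0.248, 0.371 and 0.0686 and in NRF2 KO/CDDO-Me at 0.0394, 0.149 and 0.0546. All 3 WT/CDDO-Me libraries lay far above the other 9, which stayed below 1 TPM, and the interaction was 10.62 ± 0.34 (adjusted p = 1.1e-14). Cxcl9 passed the filter on low values through the groups where it is high, and a fall in NRF2 KO CM could not be seen. Cxcl10 (chr5:92494497-92496748), its neighbour and a ligand of the same receptor, stood at 361, 329 and 358 TPM in WT/CDDO-Me and at 1.32, 0.873 and 1.5 TPM in NRF2 KO/CDDO-Me BMDMs. With vehicle its level was higher in NRF2 KO CM, at 3.56, 2.05 and 2.39 TPM against 0.108, 0.0727 and 0 TPM in WT CM (adjusted p = 0.0012). Ccl5, a chemokine for T cells and monocytes, was at 2.53, 1.51 and 1.46 TPM in WT/vehicle and 1806, 1150 and 433 TPM in WT/CDDO-Me, and at 9.42, 9.52 and 2.44 TPM in NRF2 KO/vehicle and 8.73, 9.2 and 0 TPM in NRF2 KO/CDDO-Me. The 3 WT/CDDO-Me libraries differed among themselves but did not overlap any other group (interaction 9.22 ± 1.02).

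Guanylate-binding proteins, large GTPases that attack the vacuoles of intracellular pathogens, were all called higher, 10 of 10 in the list, where 7.61% of all genes were. Gbp2 (chr3:142326349-142343779) was the most abundant of those named here. It stood at 10.6, 8.56 and 17.5 TPM in WT/vehicle, 4494, 4152 and 5675 TPM in WT/CDDO-Me, 11.8, 11.1 and 17.7 TPM in NRF2 KO/vehicle and 16.9, 19.2 and 18.6 TPM in NRF2 KO/CDDO-Me BMDMs. The level in WT/CDDO-Me lay far above that of any other group, and the interaction was 8.21 ± 0.32 (adjusted p = 2.3e-13). Gbp4 reached 604, 607 and 703 TPM in WT/CDDO-Me, and was at 0.107, 0.207 and 0.893 TPM in WT/vehicle and 0.167, 0.0839 and 0.506 TPM in NRF2 KO/CDDO-Me. The interaction of Gbp5 was 7.41 ± 0.41 and that of Gbp6 7.83 ± 0.60. Gbp2b was listed at 0 in all 3 libraries of WT/vehicle and at 253, 177 and 213 TPM in WT/CDDO-Me, so no fold is given. Gbp4 and Gbp2b passed the filter on low values through the groups where they are high, so a fall in NRF2 KO CM could hardly be seen for them. The genes of this family are close copies of each other, and how the pseudo-alignment divided reads among them is uncertain.

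The immunity-related GTPases, which act on the same vacuoles, were called higher as well. Iigp1 was at 1.97, 1.76 and 2.69 TPM in WT/vehicle, 1647, 1688 and 1880 TPM in WT/CDDO-Me and 3.02, 2.96 and 3.53 TPM in NRF2 KO/CDDO-Me BMDMs, with an interaction of 9.12 ± 0.23. Tgtp2 was at 4.79, 7.28 and 4.09 TPM in WT/vehicle and 894, 903 and 715 TPM in WT/CDDO-Me, and in NRF2 KO CM it fell from 6.86, 8.42 and 4.08 TPM with vehicle to 1.97, 1.86 and 0.86 TPM with CDDO-Me (adjusted p = 2e-04). Its near-identical copy Tgtp1 had an interaction of 8.57 ± 0.61, and the division of reads between the copies is uncertain. Igtp and Irgm1 had interactions of 6.53 and 5.14. Calhm6, a channel gene of activated macrophages outside any list, stood at 607, 575 and 638 TPM in WT/CDDO-Me and at no more than 7.26 TPM in the other 9 libraries.

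The transcription factor Irf1, an activator of this response, rose too. Irf1 rose in WT CM from 74.6, 56.8 and 112 to 890, 915 and 986 TPM, and stood in NRF2 KO CM at 62.7, 52.5 and 76.5 TPM with vehicle and at 69.6, 66.2 and 86.7 TPM with CDDO-Me (interaction 3.45 ± 0.36, adjusted p = 7.7e-07). WT/CDDO-Me lay above the other 9 libraries. Nos2, the inducible nitric oxide synthase, reached 10.2, 9.08 and 2.09 TPM in WT/CDDO-Me, with an interaction of 2.62 ± 0.69 (adjusted p = 0.014). Its call was lost with a pseudocount of 5 in place of 1 (adjusted p = 0.087; from 5.3e-05 to 0.087 over all alternatives). Of the 37 genes of the interferon-gamma response list, all tested, 35 were called higher and 0 lower, where 7.61% of all genes were called higher. Their median interaction was 4.7, against -0.04 over all tested genes. The median change with CDDO-Me was 4.65 in WT CM and -0.07 in NRF2 KO CM.

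**Figure D2:**
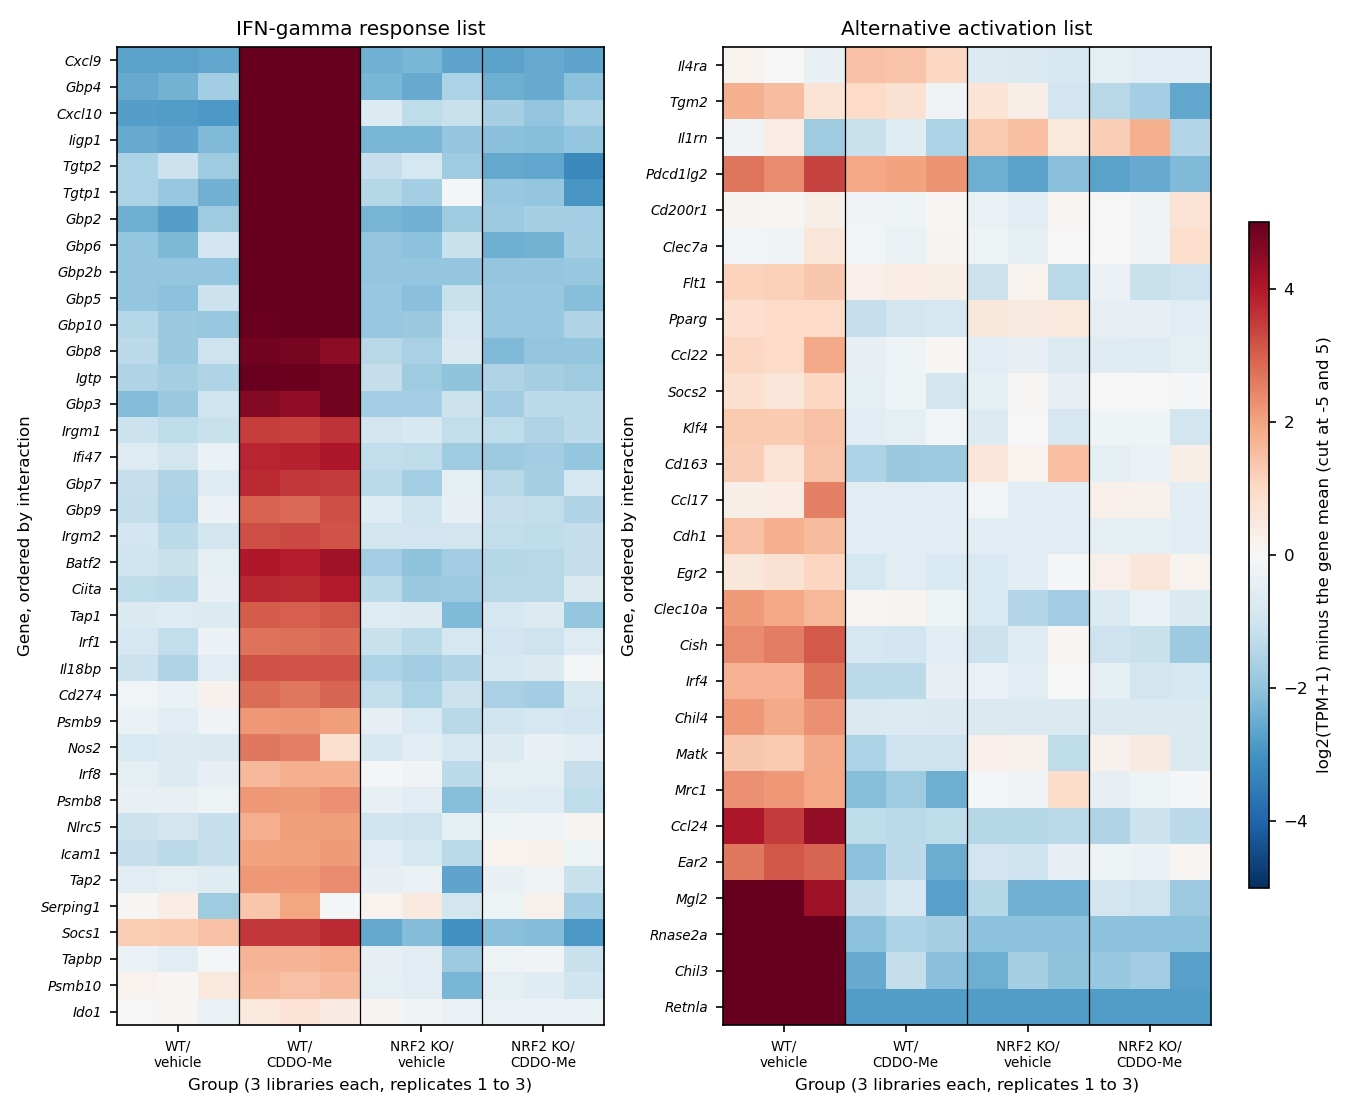
Level of each gene of the interferon-gamma response list (left, 37 genes) and of the alternative activation list (right, 27 of 28 genes) in the 12 libraries, as log2(TPM + 1) minus the gene's mean over them, colours cut at -5 and 5, genes ordered by interaction. For most genes WT/CDDO-Me alone is red on the left and WT/vehicle alone on the right, and Il4ra, at the top right, is highest in WT/CDDO-Me.

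Type I interferon target genes, most of them antiviral effectors, formed a second block with smaller interactions. Of 47 members tested, 45 were called higher and 0 lower, where 7.61% of all genes were called higher, with a median interaction of 2.51. In WT CM 43 rose with CDDO-Me, as did 13.9% of all genes. In NRF2 KO CM none rose and 12 fell, against 5.28% of all genes, with a median change of -0.34. Irf7, the regulator that amplifies type I interferon production, stood at 17, 10.5 and 12.8 TPM in WT/vehicle and 55, 46.8 and 70.7 TPM in WT/CDDO-Me, and at 9.62, 8.24 and 6.97 TPM in NRF2 KO/vehicle and 6.42, 7.1 and 6.1 TPM in NRF2 KO/CDDO-Me (interaction 2.42 ± 0.27). Ifi44 fell in NRF2 KO CM, from 1.23, 1.53 and 1.83 TPM to 0.265, 0.583 and 0.23 TPM, and rose in WT CM from 0.669, 0.81 and 1.85 TPM to 22.6, 23.6 and 36.7 TPM. Slfn1 and Parp9 had interactions of 4.78 and 2.51.

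The interferon genes themselves were hardly seen. Ifng was at 0.0637, 0 and 0 TPM in WT/vehicle and at 0 in all 3 libraries of WT/CDDO-Me, and Ifna2 and Ifna4 were listed at 0 in all 12 libraries. Ifnb1 was at 0, 0.131 and 0 TPM in NRF2 KO/vehicle and at 0 in the other 9 libraries. None of these 4 passed the filter on low values. Of the 13 other genes in the list of interferon sources, sensors and receptors, 2 were called, both higher, where 13.3% of all genes were called. Tlr9, the endosomal DNA sensor, stood at 6.15, 4.09 and 8.94 TPM in WT/vehicle and 51.9, 51.9 and 58 TPM in WT/CDDO-Me, and at 15.2, 10.9 and 15.8 TPM in NRF2 KO/vehicle and 8.95, 11.6 and 14.5 TPM in NRF2 KO/CDDO-Me. Sting1, the adaptor of cytosolic DNA sensing, rose in both media (adjusted p = 1.4e-10 and 0.003), with changes of 2.08 in WT CM and 0.61 in NRF2 KO CM. Without the pair of NRF2 KO libraries numbered 3, 6 members were called higher.

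Antigen presentation genes rose with CDDO-Me in WT CM. H2-Ab1, an MHC class II chain, stood at 198, 164 and 283 TPM in WT/vehicle, 3501, 3409 and 3616 TPM in WT/CDDO-Me, 185, 127 and 358 TPM in NRF2 KO/vehicle and 168, 171 and 253 TPM in NRF2 KO/CDDO-Me BMDMs. WT/CDDO-Me did not overlap the other groups (interaction 4.24 ± 0.45, adjusted p = 1.1e-06). Ciita, the master regulator of class II genes, rose in WT CM from 4.67, 4.54 and 9.74 TPM to 190, 185 and 214 TPM, and stood at 4.24, 4.29 and 7.41 TPM in NRF2 KO/CDDO-Me. In the class II list, which holds Cd86 and Cd40 beside the class II genes, 12 of 13 tested were called higher. The share of all genes was 7.61%, and the median interaction of the list was 2.74. In the class I list, 14 of 16 were called higher with a median of 1.95. Tap1, a subunit of the peptide transporter, had an interaction of 3.82 ± 0.38 and Nlrc5, the class I transactivator, one of 2.43 ± 0.28. Ciita, Tap1, Tap2, Tapbp, Nlrc5 and Socs1 were held by more than one list, and the class I H2 genes are close copies whose reads may have been divided uncertainly.

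Genes of alternative activation were among those with the largest negative interactions. Retnla (chr16:48662895-48664824 on GRCm39), a secreted protein of IL-4-treated macrophages, was at 1990, 1753 and 3262 TPM in WT/vehicle BMDMs and listed at 0 in the other 9 libraries, so no fold is given. Chil3, a chitinase-like lectin, stood at 461, 668 and 1257 TPM in WT/vehicle and at 0.856, 3.7 and 1.56 TPM in WT/CDDO-Me. In NRF2 KO CM it was at 0.966, 2.43 and 1.66 TPM with vehicle and 1.93, 2.27 and 0.66 TPM with CDDO-Me (interaction -7.89 ± 0.63). In Retnla and Chil3 the level in NRF2 KO/vehicle was already at or near 0, so a fall with CDDO-Me could not be seen there. Retnla passed the filter on low values through the groups where it is high.

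**Figure D3:**
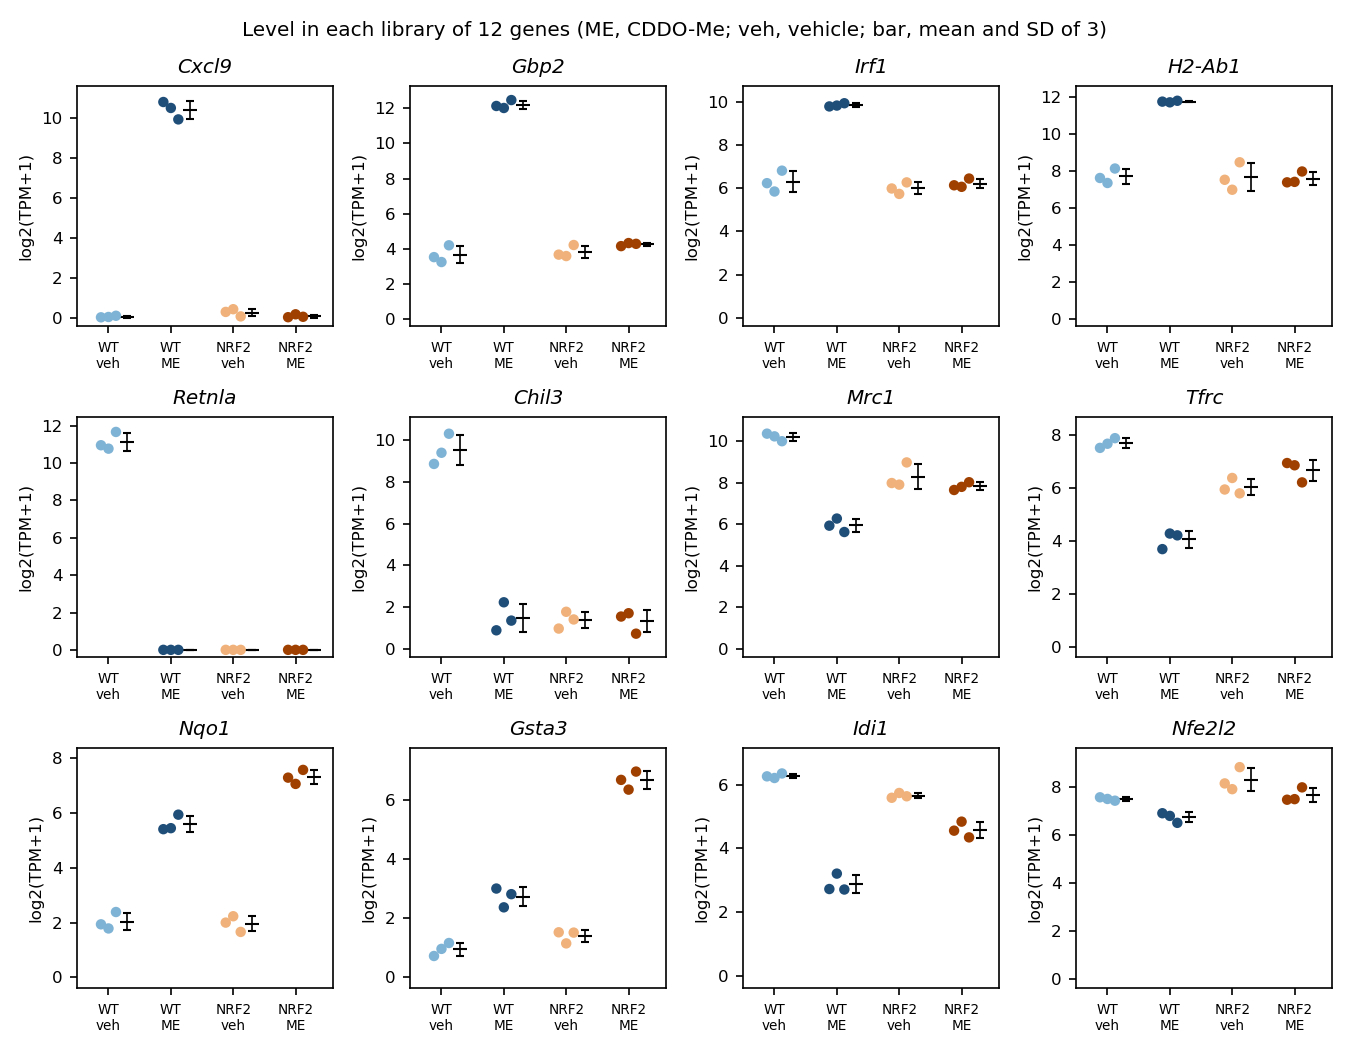
Level of 12 genes in each of the 12 libraries as log2(TPM + 1), 3 points per group, with the mean and SD beside them (veh, vehicle; ME, CDDO-Me). Cxcl9, Gbp2, Irf1 and H2-Ab1 are high in WT/CDDO-Me alone, Retnla and Chil3 in WT/vehicle alone, and Nqo1 and Gsta3 rise in both media and further in NRF2 KO CM.

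Mrc1, Ms4a4a and Ccl9 kept a level in NRF2 KO CM and still differed in their response, and of these Mrc1 alone is a gene of the list. Mrc1, the mannose receptor CD206, fell in WT CM from 1306, 1193 and 1015 TPM to 59.9, 76.2 and 48.3 TPM. In NRF2 KO CM it was at 251, 238 and 500 TPM with vehicle and 199, 221 and 258 TPM with CDDO-Me, so that WT/CDDO-Me lay below both (interaction -3.68 ± 0.35, adjusted p = 2.6e-07). Ms4a4a, a membrane protein of alternatively activated macrophages, stood at 845, 558 and 953 TPM in WT/vehicle and 2.71, 1.53 and 9.42 TPM in WT/CDDO-Me, against 84.3, 51.1 and 114 TPM in NRF2 KO/vehicle and 141, 102 and 208 TPM in NRF2 KO/CDDO-Me. Ccl9, a chemokine for monocytes, went from 1100, 1032 and 1063 to 32.6, 14 and 16.1 TPM in WT CM and from 289, 221 and 359 to 297, 261 and 374 TPM in NRF2 KO CM. Among other genes of the list, Mgl2, a galactose-type lectin, had an interaction of -7.21 ± 0.64, Ear2, an eosinophil-type ribonuclease, one of -5.42 ± 0.41, and the chemokine Ccl24 one of -5.32 ± 0.32. Rnase2a was listed at 0 in all 3 libraries of both NRF2 KO groups and stood at 273, 291 and 149 TPM in WT/vehicle. The lipase gene Lipn and the sodium channel gene Scn3a, outside the list, had interactions of -6.35 ± 0.64 and -5.17 ± 0.31, whose size depended on the pseudocount (-4.13 and -3.01 with 5, -8.53 and -8.33 with 0.1). Rnase2a, Ccl24 and Scn3a stood at means of 0, 0.905 and 0.0217 TPM in NRF2 KO/vehicle, so for these too a fall with CDDO-Me could not be seen there, and they passed the filter through the groups where they are high.

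Of 28 alternative activation genes tested 21 were called lower and 1 higher, where 5.72% of all genes were called lower. The median interaction was -2.23, with median changes with CDDO-Me of -1.99 in WT CM and 0 in NRF2 KO CM. These counts and medians include members already at or near 0 in NRF2 KO/vehicle, among them Retnla, Rnase2a, Chil3, Ccl24 and Cdh1. Such members could not show a fall in NRF2 KO CM. With vehicle 24 of the 28 were higher in WT CM than in NRF2 KO CM, where 6.56% of all genes were. With CDDO-Me 5 were higher and 6 lower, where 13.8% and 12.1% of all genes were. The member called higher was Il4ra, the shared receptor chain of IL-4 and IL-13. It stood at 140, 127 and 95.3 TPM in WT/vehicle, 349, 340 and 259 TPM in WT/CDDO-Me, 76.7, 75 and 69.6 TPM in NRF2 KO/vehicle and 92.1, 85.3 and 87.2 TPM in NRF2 KO/CDDO-Me BMDMs (interaction 1.24 ± 0.19).

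Receptors and signal carriers of IL-4 and IL-13 were called in both directions or not called. Il2rg, the common gamma chain, rose in WT CM with an interaction of 1.87 ± 0.30, as did Il13ra1. Il13ra2, the decoy receptor for IL-13 and itself a STAT6 target, was called lower. It fell in WT CM from 13.7, 16 and 7.39 TPM with vehicle to 0, 0.0371 and 0 TPM with CDDO-Me. In NRF2 KO CM it was at most 0.188 TPM, so a fall with CDDO-Me could not be seen there. Il13ra2 passed the filter through the groups where it is high. Stat6 was at 115, 116 and 111 TPM in WT/vehicle, 106, 111 and 107 TPM in WT/CDDO-Me, 135, 130 and 76 TPM in NRF2 KO/vehicle and 120, 128 and 94.9 TPM in NRF2 KO/CDDO-Me, and its interaction of -0.01 ± 0.16 was not called (adjusted p = 0.98). Socs1, an inhibitor of JAK-STAT signaling, was at 22.3, 23.1 and 25.8 TPM in WT/vehicle and 111, 111 and 125 TPM in WT/CDDO-Me, and at 0.631, 1.14 and 0.169 TPM in NRF2 KO/vehicle and 1.28, 1.16 and 0.316 TPM in NRF2 KO/CDDO-Me. It therefore differed between the media with vehicle too, by 3.98 (adjusted p = 9.6e-11). Of 12 genes tested in this axis 4 were called higher and 1 lower, where 7.61% and 5.72% of all genes were, and without the pair numbered 3 the counts were 7 and 1.

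NRF2 target genes rose with CDDO-Me in both media, and for 13 of 32 the change was called smaller in WT CM, where 5.72% of all genes were called lower. Of these 13, Cd36, Gclc, Ephx1, Me1 and Tkt were called only in NRF2 KO CM. In WT CM 23 of the 32 rose and in NRF2 KO CM 29, with median changes of 1.24 and 1.99, and none fell. Of all genes 13.9% rose in WT CM and 4.49% in NRF2 KO CM. Nqo1, a quinone reductase, stood at 2.83, 2.45 and 4.23 TPM in WT/vehicle, 41.6, 42.7 and 60.5 TPM in WT/CDDO-Me, 3, 3.7 and 2.16 TPM in NRF2 KO/vehicle and 156, 133 and 190 TPM in NRF2 KO/CDDO-Me BMDMs. The CDDO-Me groups did not overlap, and the interaction was -1.68 ± 0.47 (adjusted p = 0.019). Its call was lost without WT/vehicle replicate 3, without all 4 libraries numbered 3 and without the NRF2 KO pair numbered 3. Without the pair the interaction was -1.36 with an adjusted p of 0.066 (from 0.00091 to 0.097 over all alternatives). Gsta3, a glutathione transferase, went from 0.621, 0.916 and 1.2 to 6.92, 4.09 and 5.94 TPM in WT CM and from 1.83, 1.18 and 1.81 to 101, 80.1 and 123 TPM in NRF2 KO CM (interaction -3.39 ± 0.46). Hmox1, the heme oxygenase, went from 350, 370 and 318 to 564, 533 and 537 TPM in WT CM and from 377, 368 and 294 to 1036, 954 and 1390 TPM in NRF2 KO CM (interaction -0.93 ± 0.26, adjusted p = 0.018). The call of Hmox1 was lost without all 4 libraries numbered 3 (adjusted p = 0.061; from 0.0011 to 0.061 over all alternatives).

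Further members of the lower set were Gss, which makes glutathione, with an interaction of -2.17 ± 0.35, and Gstm1, with -1.24 ± 0.25. One member went the other way. Txn1, thioredoxin, rose from 290, 335 and 342 to 1712, 1742 and 2626 TPM in WT CM and from 330, 341 and 244 to 672, 670 and 569 TPM in NRF2 KO CM (interaction 1.66 ± 0.24). The list's median interaction was -0.7, and without the pair numbered 3 it was -0.48 with 3 members called higher and 13 lower. With vehicle 1 of the 32 was higher and 1 lower in WT CM than in NRF2 KO CM, where 6.56% and 4.11% of all genes were.

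Sterol synthesis genes fell with CDDO-Me in both media and further in WT CM. Of 24 genes tested, 21 fell in WT CM and 14 in NRF2 KO CM, with median changes of -1.77 and -0.71. The interaction was called lower for 17 and higher for 1, Pmvk, with a median of -1.02. Idi1, which isomerizes isopentenyl diphosphate, stood at 75.7, 73 and 80.7 TPM in WT/vehicle, 5.59, 8.22 and 5.52 TPM in WT/CDDO-Me, 47.1, 52.4 and 48.7 TPM in NRF2 KO/vehicle and 22.5, 27.6 and 19.3 TPM in NRF2 KO/CDDO-Me BMDMs. No 2 of the 4 groups overlapped, and the interaction was -2.23 ± 0.23 (adjusted p = 6.2e-07). Sqle, squalene epoxidase, had an interaction of -1.96 ± 0.19. For comparison, 5.72% of all genes were called lower, and 13.9% fell in WT CM and 5.28% in NRF2 KO CM. Of 13 fatty acid synthesis genes 4 were called lower and none higher, and without the pair numbered 3, 7 were called lower. Srebf1, their main regulator, had an interaction of -0.83 ± 0.17. Fasn, the fatty acid synthase, had one of -1.14 ± 0.35 (adjusted p = 0.034), and its call was lost under 9 of 24 alternatives, including leaving out any of 7 single libraries.

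Cell cycle genes fell in both media with fewer called interactions. Of 38 tested, 33 fell in WT CM and 31 in NRF2 KO CM, against 13.9% and 5.28% of all genes, and the interaction was called lower for 5 and higher for 1, where 5.72% of all genes were called lower and 7.61% higher. Without the pair numbered 3, 18 were called lower. Cenpa, a centromeric histone, stood at 49.8, 49.8 and 64.2 TPM in WT/vehicle and 8.69, 7.44 and 8.56 TPM in WT/CDDO-Me, and at 47.5, 44.2 and 38.6 TPM in NRF2 KO/vehicle and 26.1, 33.1 and 15.4 TPM in NRF2 KO/CDDO-Me (interaction -1.65 ± 0.31). Tyms, which makes thymidylate, had one of -1.33 ± 0.30. The member called higher, the topoisomerase gene Top2a (1.39 ± 0.36), lost its call without the libraries numbered 3 of all 4 groups (adjusted p = 0.14; from 0.0018 to 0.14 over all alternatives) and on the 12 libraries alone.

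**Figure D4:**
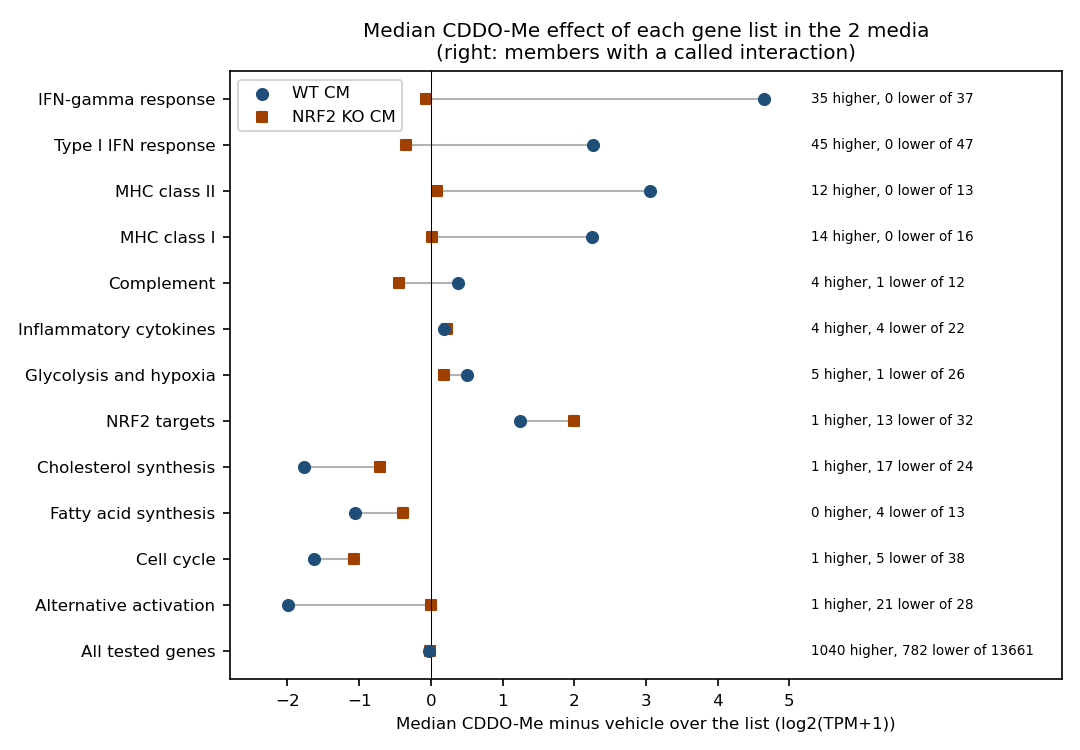
Median change with CDDO-Me over the tested members of 12 gene lists and over all 13661 genes (x axis, log2(TPM + 1)), in WT CM (circles) and NRF2 KO CM (squares), with the members called in the interaction at the right. The distance between the symbols is widest for the interferon-gamma response, at 4.65 against -0.07. NRF2 targets, sterol synthesis and cell cycle are among the lists with medians of the same sign in both media.

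Inflammatory cytokines and chemokines were divided. Of 22 tested, 4 were called higher (Ccl5, Il27, Ptgs2 and Tnf) and 4 lower (Ccl9, Ccl7, Ccl6 and Ccl2), with a median of -0.14. Of all genes 7.61% were called higher and 5.72% lower. Without the pair numbered 3, 6 of the 22 were called higher and 3 lower. Tnf stood at 3.79, 4.07 and 3.79 TPM in WT/vehicle, 35.4, 40.7 and 39.5 TPM in WT/CDDO-Me, 10.5, 9.98 and 3.81 TPM in NRF2 KO/vehicle and 9.45, 10.7 and 7.32 TPM in NRF2 KO/CDDO-Me BMDMs (interaction 2.87 ± 0.34). Il27, a subunit of interleukin-27, rose in WT CM from 1.03, 1.51 and 2.11 to 39.3, 37.2 and 43.5 TPM and stood at 1.34, 2.09 and 0.327 TPM in NRF2 KO/CDDO-Me. Il6 rose in both media, by 1.49 in WT CM and 1.64 in NRF2 KO CM (adjusted p = 0.014 and 0.02), and its interaction was not called (adjusted p = 0.94). The neutrophil chemokine gene Cxcl5 had an interaction of -0.55 ± 0.70, also not called (adjusted p = 0.75). Of 14 genes of NF-kB and its feedback, 2 were called higher, Nfkbiz (2.31 ± 0.26) and Cyld, where 13.3% of all genes were called in either direction.

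Amino acid, glucose and iron handling showed single strong members. Slc7a2, an arginine transporter, went from 47.7, 47.5 and 64 TPM in WT/vehicle to 4.3, 4.49 and 3.77 TPM in WT/CDDO-Me and stood at 6.04, 7.51 and 5.03 TPM in NRF2 KO/vehicle and 6.29, 6.95 and 2.58 TPM in NRF2 KO/CDDO-Me (interaction -3.02 ± 0.37). Of 15 arginine and polyamine genes 4 were called lower and 2 higher, where 5.72% and 7.61% of all genes were. Tfrc, the transferrin receptor, fell in WT CM from 182, 203 and 235 to 11.9, 18.4 and 17.5 TPM and rose in NRF2 KO CM from 60.5, 82.2 and 54.6 to 122, 115 and 73.1 TPM (adjusted p = 0.019). Its interaction was -4.17 ± 0.24 (adjusted p = 1.4e-10), and WT/vehicle and WT/CDDO-Me lay above and below all 6 NRF2 KO libraries. Of 13 iron and heme genes tested 3 were called lower and 1 higher, where 5.72% and 7.61% of all genes were. Slc11a1, a phagosomal metal transporter, was the one called higher (1.07 ± 0.28), and the call was lost without scaling and on the 12 libraries alone. Of 26 glycolysis and hypoxia genes 5 were called higher and 1 lower, where 7.61% and 5.72% of all genes were. The interaction was 1.79 ± 0.14 for Pfkp, a phosphofructokinase, and 1.35 ± 0.28 for Pfkfb3. Without the pair numbered 3, 8 of the 26 were called higher. Tarm1, an activating receptor of myeloid cells, fell in WT CM (21, 13.8 and 38.4 to 8.67, 4.32 and 4.51 TPM) and rose in NRF2 KO CM (0.024, 0.0518 and 0 to 9.82, 6.48 and 25.3 TPM).

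Markers of other cell types were measured in the same libraries, and in bulk RNA fewer cells of a type and less RNA per cell cannot be told apart. All 19 fibroblast markers were above 1 TPM in at least 1 of the 12 libraries, led by Bgn. Their sum was 1522, 2128 and 1089 TPM in WT/vehicle, 1007, 1484 and 554 TPM in WT/CDDO-Me, 2289, 4552 and 2050 TPM in NRF2 KO/vehicle and 3136, 3798 and 1465 TPM in NRF2 KO/CDDO-Me BMDMs. None of the 19 was called in the interaction by limma, 1 had an unadjusted p below 0.05, and the median was -0.45, and the part of these cells in the results was not tested. The 7 endothelial and 2 B cell markers tested had no call by limma, and 1 and 0 of them an unadjusted p below 0.05. T cell and NK cell genes were near absent, with Gzma at 0 in all 12 libraries and Cd3e at no more than 0.0801 TPM. The one marker of that list that was called, Cd4 (1.02 ± 0.24), stood at 13.9, 13.1 and 15.8 TPM in NRF2 KO/vehicle and at no more than 6.45 TPM in the other 9 libraries.

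Among 8 dendritic cell markers 5 were tested. The counts of calls in these short lists stand against 13.3% of all genes called in either direction. Clec9a and Xcr1, which mark conventional dendritic cells of the cross-presenting type, were called higher. Clec9a was at 0.0793, 0 and 0.497 TPM in WT/vehicle, 95.4, 95.5 and 123 TPM in WT/CDDO-Me and 0.0909, 0.153 and 0.283 TPM in NRF2 KO/CDDO-Me (interaction 6.65 ± 0.28), while Xcr1 reached 4.69, 3.97 and 2.92 TPM in WT/CDDO-Me. Among the 12 libraries both were above 1 TPM in WT/CDDO-Me alone. They passed the filter through the groups where they are high, and a fall in NRF2 KO CM could not be seen. Itgax, the CD11c gene, and Cd209a were called lower, with -2.15 ± 0.27 for Itgax, and Flt3 stayed at or below 0.239 TPM. The sum of the 8 was 194, 205 and 205 TPM in WT/CDDO-Me against 328, 380 and 415 TPM in WT/vehicle. Of 6 neutrophil markers tested 1 was called, Mmp8, a neutrophil collagenase. Mmp8 went from 1.65, 1.37 and 6.25 to 20.2, 8.67 and 21.5 TPM in WT CM and from 2.05, 1.6 and 10.3 to 184, 125 and 711 TPM in NRF2 KO CM, with Retnlg at 0 in all 12 libraries and Ly6g at 0 in 10. Its call was lost under 6 of 24 alternatives, 5 of them the removal of 1 library (adjusted p from 1.3e-05 to 0.086). The basophil list had 1 call of 4 tested, Hdc, higher, which was lost without the pair numbered 3 (adjusted p = 0.058). Among the 12 libraries Hdc too was above 1 TPM only in libraries of WT/CDDO-Me. The erythroid and platelet list had 1 call of 3 (Pf4, -3.40 ± 0.33), the osteoclast list 2 of 4 (Ctsk, -2.62 ± 0.21, and Acp5, both lower) and the carcinoma list 1 of 2 (Cdh1, -2.23 ± 0.17), with Epcam at no more than 0.272 TPM. Cdh1, E-cadherin, is also a gene of the alternative activation list. It stood at 3.06, 4.04 and 3.46 TPM in WT/vehicle and at 0 in all 3 libraries of NRF2 KO/vehicle. A fall with CDDO-Me could therefore not be seen in NRF2 KO CM, and Cdh1 passed the filter through the groups where it is high. Its interaction ran from -5.53 to -0.78 over all alternatives. None of the 13 mitochondrially encoded genes was called by limma, 1 had an unadjusted p below 0.05, and 5 were called lower without the pair numbered 3.

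The other 12 libraries gave the same interaction for a different pair of media and share no sample with it. KEAP1 KO CM was set against control media, and each interaction was fitted on its own 12 libraries. For KEAP1 KO CM minus control media 3450 of 13123 genes (26.3%) were called. Of 12901 genes tested in both fits, 1126 were called for WT CM minus NRF2 KO CM and 3420 for KEAP1 KO CM minus control media, and 1012 in both. All 1012 had the same sign. They made up 89.9% of the first set, where 26.5% of all genes tested in both were in the second set. Of the second set they made up 29.6%, where 1126 of all 12901 genes were in the first set. The sign was the same for 99.3% of the 1126 genes and for 74.8% of all 12901. Across genes, which are not independent replicates, Pearson's r was 0.86 and Spearman's rho 0.70. The 2 sets of libraries were made in the same experiment and share the numbering of their samples.

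**Figure D5:**
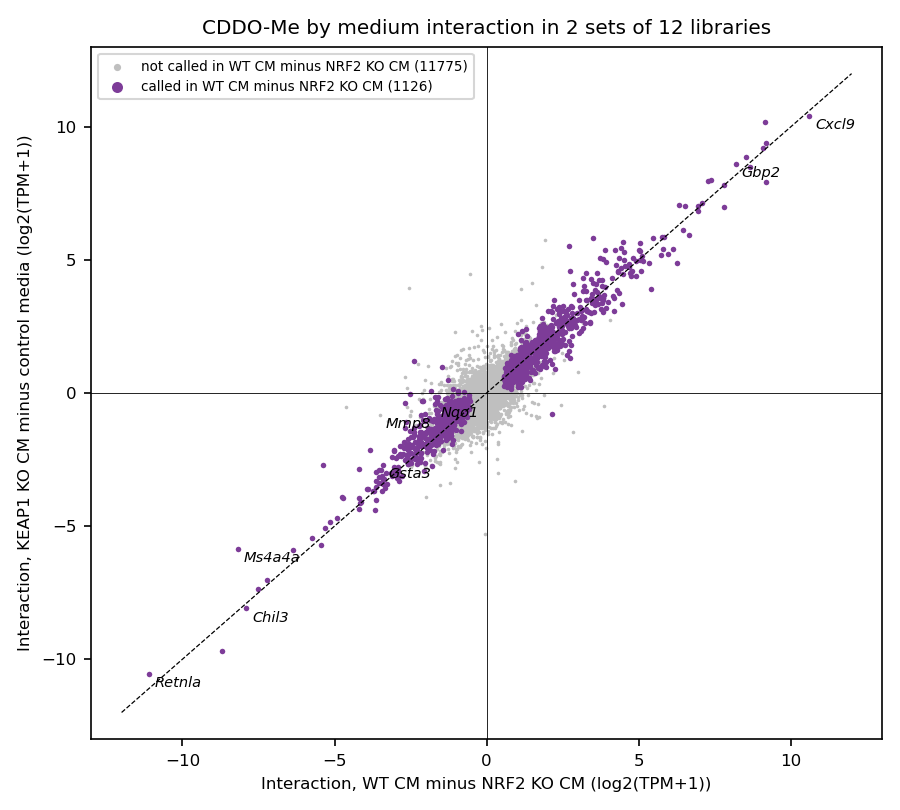
Interaction for WT CM minus NRF2 KO CM (x axis) and for KEAP1 KO CM minus control media (y axis), each from its own 12 libraries, on the log2(TPM + 1) scale, for 12901 genes; purple marks the 1126 called on the x axis and the dashed line equal values. The purple genes lie near the line from Retnla to Cxcl9, with r = 0.86 over all genes.

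The levels behind this second interaction were as follows for 3 genes. Retnla stood at a mean of 1592 ± 258 TPM (SD, n = 3) in KEAP1 KO CM with vehicle, and was listed at 0 in KEAP1 KO CM with CDDO-Me and in control media with either treatment. Chil3 stood at 793 ± 349 TPM in KEAP1 KO CM with vehicle and at 2.43 ± 1.39 TPM in control media with vehicle. Gbp2 was at 4716 ± 787 TPM in KEAP1 KO CM with CDDO-Me and at 12.5 ± 0.802 TPM in control media with CDDO-Me. For these 3 genes, at the treatment named, the levels in NRF2 KO CM were nearer to those in control media than to those in KEAP1 KO CM, and the levels in WT CM nearer to those in KEAP1 KO CM. This was not tested. Among the lists, median interactions in the second set were 5.06 for the interferon-gamma response, -2.46 for alternative activation and -1.13 for sterol synthesis. Other lists had medians further apart or of opposite sign. The median for inflammatory cytokines was 0.8 there against -0.14, that of macrophage markers 0.26 against -0.2 and that of the integrated stress response -0.24 against 0.09. For cell cycle genes it was -1.26 against -0.48, with 30 of 38 called lower, where 1616 of all 13123 genes were. These differences were not tested. For NRF2 targets the second median was -0.14, nearer 0 than the -0.7 of the first. Of the 32 members 5 were called higher and 11 lower there, against 1834 and 1616 of all 13123 genes. The interaction of Nqo1 was -0.41 there, not called (adjusted p = 0.61), and whether the 2 interactions differ for NRF2 targets was not tested.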

How the data were processed

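BMDM RNA was sequenced as poly(A) libraries. The deposited values are TPM, which the authors estimated per gene with Kallisto on GRCm39, and each of the 24 columns summed to 1000000. One line without a gene name, 0.02% to 0.064% of TPM, was left out. TPM were divided by TMM-type factors computed on TPM, a pseudocount of 1 was added and log2 taken. Genes above 1 TPM in at least 3 libraries were fitted with limma 3.58.1 (R 4.3.3) in 1 model of 24 libraries and 8 groups (16 residual degrees of freedom, trended prior), with Benjamini-Hochberg adjustment over all tested genes. Fold changes on this scale understate those of low genes, and counts of reads and depth are unknown. "Called", "rose" and "fell" mean an adjusted p below 0.05.

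The comparison and all 35 gene lists were chosen with earlier results of these data known. Named genes were the 12 largest called interactions in each direction among genes with a group mean of at least 5 TPM, up to 4 members of each list by adjusted p, and 14 fixed genes. Some of these genes are not reported here. Others were chosen after their values were seen, as were 3 added alternatives (all libraries numbered 3 left out, the lists without the NRF2 KO pair, and the lists in KEAP1 KO CM minus control media). Alternatives were RLE scaling or none, other filters and pseudocounts, no trend, array weights, the replicate block, 12 libraries alone and each library left out. On simulated data for this interaction with 13661 genes, 51 of 100 genes planted at a log2 of 1 and 93 of 100 at 2 were called, with 12 false calls. Gene positions are from GENCODE (GRCm39).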

Additional observations from a re-analysis of the deposited data

Results flagged for a closer look

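The change with CDDO-Me differed between WT CM and NRF2 KO CM for 1822 genes by the interaction test, which the report describes, and the genes with the largest values are repeated here because the effect of one treatment differed between 2 groups. Among the genes higher in WT CM, the log2(TPM + 1) interaction was 10.62 for Cxcl9, 9.22 for Ccl5, 9.20 for Gbp4, 9.18 for Cxcl10, 9.12 for Iigp1 and 8.69 for Tgtp2. Smaller values of the same sign were 8.57 for Tgtp1, 8.21 for Gbp2, 7.83 for Gbp6, 7.83 for Gbp2b, 7.41 for Gbp5 and 7.32 for Calhm6. Among the genes lower in WT CM it was -11.14 for Retnla, -8.16 for Ms4a4a, -7.89 for Chil3, -7.53 for Rnase2a and -7.21 for Mgl2. It was -6.35 for Lipn, -5.71 for Ccl9, -5.42 for Ear2, -5.38 for Tarm1, -5.32 for Ccl24 and -5.17 for Scn3a. The size, and so the order, depends on the pseudocount for genes with a group at or near 0. Between pseudocounts of 5 and 0.1 it ran from 8.24 to 13.98 for Cxcl9, from 6.54 to 12.32 for Cxcl10, from -4.13 to -8.53 for Lipn, from -3.10 to -8.47 for Tarm1 and from -3.01 to -8.33 for Scn3a, against 7.91 to 8.30 for Gbp2. For Retnla, Rnase2a and Gbp2b, which have groups listed at 0, it is no fold. Groups of 3 libraries were not tested for single outlying samples.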

How the results depend on the processing

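All alternatives kept the sign of the 88 called genes named in the text that were checked, and 79 of the 88 kept their call under each alternative in which they were tested, 24 for all but Cdh1 and Xcr1, which a filter at 5 TPM left out (23). The other 9 (Bag3, Fasn, Hmox1, Hspa8, Mmp8, Nos2, Nqo1, Slc11a1 and Top2a) lost it under some. Counts of calls moved more. With array weights, which gave the NRF2 KO pair numbered 3 weights of 0.04 and 0.07 and the other 22 libraries 0.44 to 6.19, the interaction was called for 4575 genes, CDDO-Me in WT CM for 7140, CDDO-Me in NRF2 KO CM for 3033, the media with vehicle for 3401 and the media with CDDO-Me for 7197. Without that pair the counts were 2949 for the interaction, 5926 for CDDO-Me in WT CM and 5492 for the media with CDDO-Me. On the 12 libraries alone they were 1133 for the interaction, 699 for CDDO-Me in NRF2 KO CM, 562 for the media with vehicle and 2343 for the media with CDDO-Me. Leaving out 1 library gave 1532 to 2406 for the interaction, 3167 to 4744 for CDDO-Me in WT CM, 1049 to 1523 in NRF2 KO CM, 2622 to 5001 for the media with CDDO-Me and 2739 to 3382 for KEAP1 KO CM minus control media. For the media with vehicle it gave 805 (without WT/vehicle replicate 3) to 2431 (without NRF2 KO/vehicle replicate 1), and 870 without WT/vehicle replicate 1. With the replicate number as a block the interaction was called for 2545 genes and the media with vehicle for 2568. The main fit did not pair the samples by number. Across 18 same-numbered pairs of libraries from different groups r ran from 0.02 to 0.72, with a mean of 0.26. For pairs with different numbers the mean was -0.12, and 11 of 12 libraries correlated best with their own number. The main fit therefore left this likeness out. The causes of these moves were not tested.

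Interactions that were not called changed sign under some alternatives. Without the NRF2 KO pair numbered 3 that of Il6 was 0.094 and that of Stat6 0.14. With array weights they were 0.27 and 0.15, and without all 4 libraries numbered 3, 0.36 and 0.11. Leaving out 1 library gave -1.04 to 0.009 for Cxcl5, -0.56 to 0.30 for Il6, -0.33 to 0.25 for Nfe2l2 and -0.14 to 0.21 for Stat6. Since depth could not be read from TPM, no limit from counting error is given.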

Other observations

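Several smaller lists had calls in both directions or few calls. Of 12 complement genes 4 were called higher and 1, the receptor gene C5ar1, lower, where 7.61% of all genes were called higher and 5.72% lower. Cfb, complement factor B, stood at 4.94, 4.38 and 3.91 TPM in WT/vehicle, 65, 39.7 and 60.8 TPM in WT/CDDO-Me, 4.54, 4.38 and 2.2 TPM in NRF2 KO/vehicle and 3.64, 3.05 and 2.88 TPM in NRF2 KO/CDDO-Me BMDMs, and only WT/CDDO-Me stood apart. C4b had an interaction of 3.83 ± 0.66. C1qb, a chain of the first complement component, rose in WT CM and fell in NRF2 KO CM, with changes of 0.42 and -0.68 (adjusted p = 0.033 and 0.004). Among 7 chemokine receptors tested Ccr2 (2.11 ± 0.31) was called higher and Ccr3 (-1.64 ± 0.26) lower. Without the NRF2 KO pair numbered 3, counts of calls rose from 2 to 3 higher in this list, and from 1 to 2 lower among the complement genes. Among 13 scavenger and efferocytosis genes Mertk (1.03 ± 0.20) and Axl were called higher and Stab1 (-2.16 ± 0.28), Gas6 and Cd36 lower, and without that pair 5 were called lower. Of the 12 macrophage markers 3 were called higher (Fcgr1, Aif1 and Mertk) and 2 lower, among them Cd68, and without that pair 4 were called lower. Fcgr1, the high-affinity IgG receptor, went from 49, 51 and 51.3 to 494, 448 and 496 TPM in WT CM and from 84.4, 74.8 and 49.3 to 35.6, 32.3 and 24.4 TPM in NRF2 KO CM, so that it rose in one medium and fell in the other (adjusted p = 3.9e-05 for the fall).

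Stress lists had calls near or below the share of all tested genes, 13.3%. Of 15 heat shock genes Hspa8 was called higher (1.04 ± 0.30; adjusted p from 1.5e-06 to 0.15 over all alternatives) and Bag3 lower (-0.54 ± 0.14). The call of Bag3 was lost on the 12 libraries alone (adjusted p from 0.00012 to 0.053 over all alternatives). Of 19 genes of the integrated stress response 1 was called, Atf3 (-0.74 ± 0.19), and 4 were called lower without the NRF2 KO pair numbered 3. Of 10 genes of cholesterol efflux and the liver X receptors 1 was called, Apoc2, lower, and without that pair 2 were called higher and 2 lower. None of the 10 regulators of NRF2 was called by limma, 2 had an unadjusted p below 0.05, and without the pair numbered 3, 2 were called higher.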
